A study of Homo sapiens with 34 samples.

Results

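U2OS osteosarcoma cells that had been synchronized and kept in 5 mM 6-aminonicotinamide (6AN), an inhibitor of the pentose phosphate pathway (PPP), were compared with themselves across the circadian cycle. The comparison set the 6 time points around the delayed peak of ARNTL, the gene for the clock protein BMAL1, against the other 6. Both sets of hours were chosen by the ARNTL levels of these same libraries, so that the ARNTL difference is a description and carries no test. They hold 12 of the 34 samples of the series, which also has 12 RNA sequencing (RNA-seq) libraries from control cells and 10 chromatin immunoprecipitation sequencing (ChIP-seq) libraries. The ARNTL-high hours are the libraries labelled 0, 4, 20, 24, 28, and 44 hr, and the ARNTL-low hours those labelled 8, 12, 16, 32, 36, and 40 hr.

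All cells of the series are U2OS, a human osteosarcoma line, with a stably expressed luciferase reporter behind a Bmal1 promoter. Both sets carry the same reporter, had been synchronized with dexamethasone, and were in 5 mM 6AN throughout. They differ in the hour of collection and in nothing else that the labels give. The control libraries come from the same reporter line at the same 12 labelled hours with DMSO, the solvent of 6AN, in its place. The whole experiment rests on 1 reporter line, and each hour of each condition is 1 library. RNA extracts were made in triplicate, and if these went into 1 library together is not given in the sources used here. A p-value below therefore measures the spread between hours within a set, and this spread includes any rhythm whose peak lies elsewhere than the ARNTL peak or trough. The fit treats the 12 hours as independent. A slow change shared by neighbouring hours, beyond a linear trend, was not modelled.

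The mammalian clock is a feedback loop of transcription. BMAL1 pairs with CLOCK or NPAS2 and activates genes through E-box sequences, among them the PER and CRY repressors that shut the pair off, the REV-ERB receptors NR1D1 and NR1D2, and the PAR-bZIP factors DBP and TEF. The REV-ERBs repress ARNTL, NPAS2, CRY1, and NFIL3 through a separate element that the ROR receptors use to activate them. Transcripts driven by E-boxes and transcripts driven by the REV-ERB and ROR element therefore peak at different times of day in most tissues.

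Levels are given in FPKM, fragments scaled by transcript length and library size, as the authors computed them for the 6AN table. ARNTL (chr11:13277727-13387265 in hg38) stood at 10.9, 7.14, 3.29, 3.58, 8.95, and 12.6 FPKM in the first cycle, labelled 0, 4, 8, 12, 16, and 20 hr. In the second cycle, labelled 24, 28, 32, 36, 40, and 44 hr, it stood at 11.5, 7.0, 4.75, 4.51, 5.26, and 8.67 FPKM. The 2 sets of hours overlapped at their edges, since the lowest library of the ARNTL-high hours (28 hr) had 7.0 FPKM and the highest of the ARNTL-low hours (16 hr) had 8.95. The means were 9.64 ± 2.36 and 5.06 ± 2.05 FPKM (SD over the 6 libraries of each). On the log2(FPKM + 1) scale, with a linear trend over the 12 hours fitted beside it, the ARNTL-high hours exceeded the ARNTL-low hours by 0.84 (SE 0.21). It did so by 1.06 within the first cycle and by 0.74 within the second.

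PER3 and NR1D1, the other markers of the comparison, are described here without a test as well. PER3 (chr1:7784429-7845180), a period gene and BMAL1 target, ran from 7.0 to 12.3 FPKM in the ARNTL-high hours, with a median of 9.78, and from 12.2 to 19.5 in the ARNTL-low hours, with a median of 17.2. Its difference was -0.71 (SE 0.14), and once the trend was removed the 2 sets did not overlap. NR1D1, which encodes REV-ERBalpha, ran from 16.3 to 43.6 FPKM in the ARNTL-high hours and from 15.8 to 32.5 in the ARNTL-low hours, and its medians were 24.3 and 20.8 FPKM. Its difference was 0.16 (SE 0.22), of opposite sign in the cycles, at 0.34 and -0.24. NR1D1 was highest at 0, 4, and 8 hr and again at 28 and 32 hr, on the border between the 2 sets of hours, which do not separate its high from its low hours. The deposited NR1D1 locus (chr17:40062193-40100725) also spans the neighbouring THRA gene, and its FPKM may include reads from it.

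**Figure D1:**
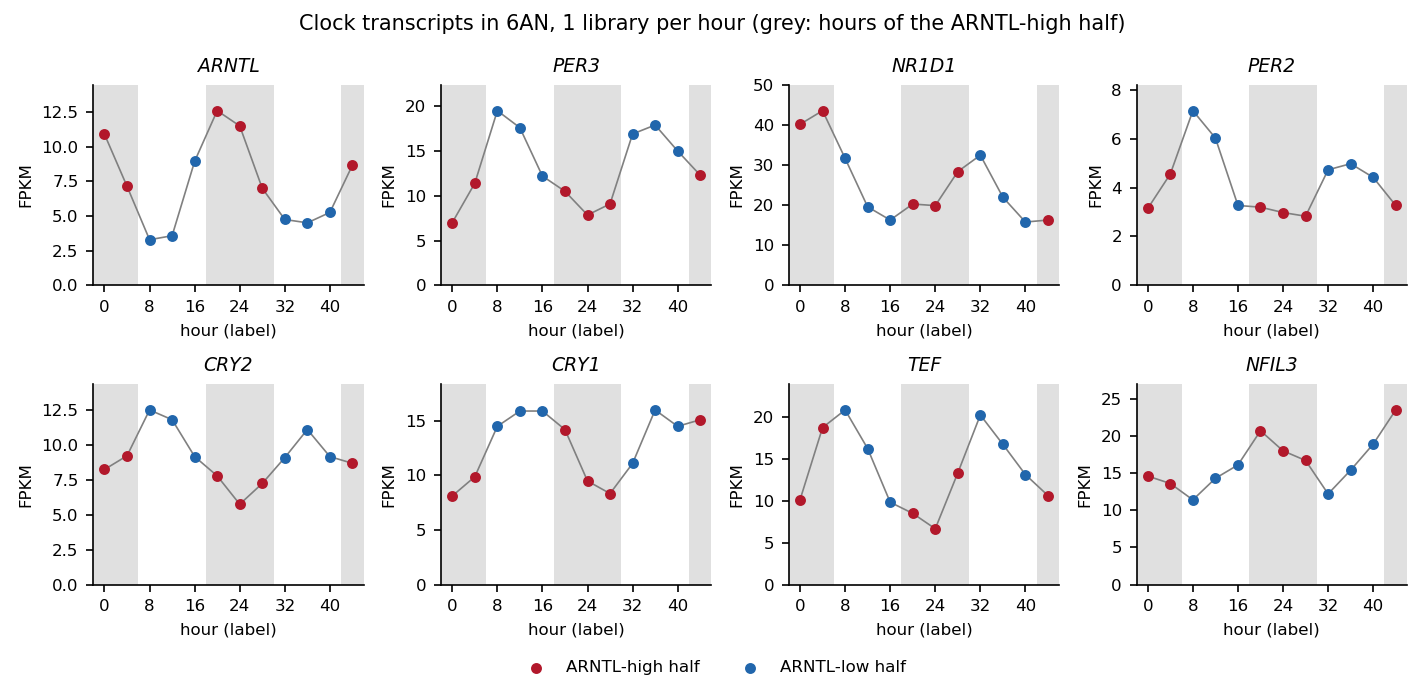
FPKM of 8 clock transcripts (y axis) by labelled hour (x axis, hr) in 6AN, 1 library per point, in red for the ARNTL-high hours (grey bands) and in blue for the ARNTL-low hours. ARNTL is highest at 20 hr with 12.6 FPKM, PER3 is highest at 8 hr with 19.5 FPKM, and NR1D1 peaks on the border between the 2 sets of hours.

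The 2 loci of highest FPKM held 37.1% to 41.0% of the summed FPKM in the ARNTL-high hours and 34.8% to 40.1% in the ARNTL-low hours. The tables give no read totals. Judged by the step size of low FPKM values, depth relative to the median 6AN library ran from 0.697 to 1.36 in the ARNTL-high hours and from 0.768 to 1.54 in the ARNTL-low hours, with medians of 0.961 and 1.224, and between 354 and 442 tested loci were at 0 in an ARNTL-high library against 330 to 403 in an ARNTL-low library. The part of depth in the differences below was not tested. Pearson's coefficient across genes, which are not independent replicates, had a median of 0.889 over the 66 pairs of 6AN libraries and ran from 0.864 to 0.908. Of 11 markers of the osteoblast lineage, 8 had a mean of at least 1 FPKM, RUNX2 and SPARC among them, while SP7, IBSP, and COL1A2 were below it. BGLAP is counted among the 8 through a deposited locus joined with PMF1, and its FPKM may include reads from PMF1. Of 19 markers of other cell types, 2 passed that level, LYZ and SNAP25. The summed level of all 19 ran from 6.33 to 12.7 FPKM in the ARNTL-high hours and from 8.7 to 12.7 in the ARNTL-low hours, and PTPRC, HBB, MYOD1, and ALB were at or near 0.

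To show examples of the motifs at the starts of genes in the comparison, 300-base windows spanning RefSeq transcription start sites (GRCh38.p14), mostly upstream of them, were read for the E-box CACGTG and for AGGTCA, the core of the REV-ERB and ROR element, on both strands. The first pair of windows belongs to ARNTL, which chose the 2 sets of hours, and to NFIL3, the PAR-bZIP antagonist that was at its highest near ARNTL. Capitals mark AGGTCA or its reverse complement TGACCT.

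ARNTL (BMAL1 in RefSeq), chr11:13277540-13277839, + strand: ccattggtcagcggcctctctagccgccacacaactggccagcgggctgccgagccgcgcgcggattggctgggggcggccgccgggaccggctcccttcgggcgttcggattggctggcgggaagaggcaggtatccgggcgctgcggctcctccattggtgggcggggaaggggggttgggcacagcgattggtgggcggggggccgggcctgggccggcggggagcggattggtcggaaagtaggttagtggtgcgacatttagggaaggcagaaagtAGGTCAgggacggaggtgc

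NFIL3, chr9:91423783-91424082, - strand: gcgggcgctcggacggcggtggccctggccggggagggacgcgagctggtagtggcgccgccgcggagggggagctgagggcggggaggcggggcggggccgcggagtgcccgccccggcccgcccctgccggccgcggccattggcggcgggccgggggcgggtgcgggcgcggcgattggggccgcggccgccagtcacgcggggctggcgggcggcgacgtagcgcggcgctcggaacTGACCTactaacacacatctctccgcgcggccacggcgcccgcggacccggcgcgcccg

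The next 4 windows hold the E-box, in capitals. NR1D2 is a clock gene with one of the strongest BMAL1/CLOCK sites in 6AN over its start region, ALDH3B1 and CCDC86 are bound genes outside the clock lists that were lower in the ARNTL-high hours, and IRS1 is among the genes of smallest p in that direction.

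NR1D2, chr3:23945871-23946170, + strand: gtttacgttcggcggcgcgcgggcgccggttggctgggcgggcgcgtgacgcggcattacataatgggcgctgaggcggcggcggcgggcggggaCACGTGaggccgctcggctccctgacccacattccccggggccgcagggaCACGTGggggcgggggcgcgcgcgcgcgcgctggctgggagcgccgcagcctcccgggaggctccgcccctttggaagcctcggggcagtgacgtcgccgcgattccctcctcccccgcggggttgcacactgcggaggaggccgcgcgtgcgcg

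ALDH3B1, chr11:68008297-68008596, + strand: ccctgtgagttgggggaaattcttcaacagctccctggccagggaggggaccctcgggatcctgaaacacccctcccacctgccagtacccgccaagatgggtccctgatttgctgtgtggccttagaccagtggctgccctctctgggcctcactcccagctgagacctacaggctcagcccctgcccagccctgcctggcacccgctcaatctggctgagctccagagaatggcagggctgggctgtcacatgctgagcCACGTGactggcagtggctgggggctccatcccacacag

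CCDC86, chr11:60841863-60842162, + strand: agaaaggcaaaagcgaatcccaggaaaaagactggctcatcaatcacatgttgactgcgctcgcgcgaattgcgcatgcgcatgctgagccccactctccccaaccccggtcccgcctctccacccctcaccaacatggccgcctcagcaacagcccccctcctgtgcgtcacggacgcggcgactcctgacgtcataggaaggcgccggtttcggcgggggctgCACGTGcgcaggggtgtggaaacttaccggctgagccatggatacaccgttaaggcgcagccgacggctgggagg

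IRS1, chr2:226799771-226800070, - strand: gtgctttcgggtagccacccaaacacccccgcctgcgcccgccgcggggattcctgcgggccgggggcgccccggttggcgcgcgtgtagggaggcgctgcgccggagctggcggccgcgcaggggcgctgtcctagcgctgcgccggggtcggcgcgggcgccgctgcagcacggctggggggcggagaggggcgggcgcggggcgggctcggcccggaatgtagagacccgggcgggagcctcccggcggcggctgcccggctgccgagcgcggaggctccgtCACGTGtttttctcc

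The E-box stood in 7.26% of all 35116 windows and in 9.3% of the 14528 windows of expressed genes that could be matched. It stood in 6 of 26 windows (23.1%) of the clock lists, in 13 of 116 windows (11.2%) of genes called lower in the ARNTL-high hours, and in 9 of 109 windows (8.26%) of genes called higher. AGGTCA stood in 13.8% of all windows, in 10% of those of matched expressed genes, in 5 of 26 windows (19.2%) of the clock lists, in 8 of the 116 windows (6.9%) of genes called lower, and in 13 of the 109 (11.9%) of genes called higher. Only windows that hold a motif are printed, and not all of those. AGGTCA or its reverse complement also stood in windows of CRY2 and PER1. Their ARNTL-high minus ARNTL-low differences were negative, at -0.40 and -0.29. The window of NPAS2, which had a positive difference of 0.18, holds neither motif. The windows of PER3, NR1D1, PER2, CRY2, and DBP hold no CACGTG, and the second windows of ARNTL, NFIL3, and ALDH3B1 hold neither motif. A match is a run of letters and not a site shown to be used.

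Which transcripts differ between the ARNTL-high and ARNTL-low hours of 6AN, beyond the genes that define the 2 sets of hours? The comparison covered 13767 loci with a mean of at least 1 FPKM over the 12 hours, after ARNTL, PER3, and NR1D1 were set aside. C1orf145 was just inside that limit with a mean of 1.0001 FPKM and CCL26 just outside with 0.9999. A call was p of at most 0.01 in limma. The study used the same cut-off for rhythmic transcripts, but with a different test, the RAIN algorithm. In limma, 107 genes were higher in the ARNTL-high hours, 0.777% of those tested, and 98 were lower, 0.712%. Uniform p-values would put 0.5% in each direction, or 68.84 genes, with the hours taken as independent. With Benjamini-Hochberg adjustment to 0.05, limma called 0 genes (0%). The smallest adjusted p was 0.259, and 801 genes had an unadjusted p under 0.05. Every gene called below is called without adjustment. The counts were 143 higher and 85 lower with each library centred on its median, 44 and 56 with no trend removed, and 69 higher without the library of 8 hr.

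The called differences were small. Their median was 0.20 among the higher genes, with a range from 0.10 to 0.76, and -0.25 among the lower ones, against a median of 0.0047 over all genes. Only 7 of the higher and 8 of the lower genes differed by at least 0.5 on the log2 scale. After the trend was removed, the 2 sets of hours did not overlap in 40 of the 107 higher and 29 of the 98 lower genes, against 82 of all tested genes (0.596%). All 205 called genes had the same sign in both cycles, whereas 51.8% of all tested genes did. A call made on both cycles together favours such agreement, and a call made on the same difference favours sets that do not overlap. Across all tested genes, the difference in the first cycle and that in the second had a Pearson coefficient of -0.034, a description over genes that share the same libraries.

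**Figure D2:**
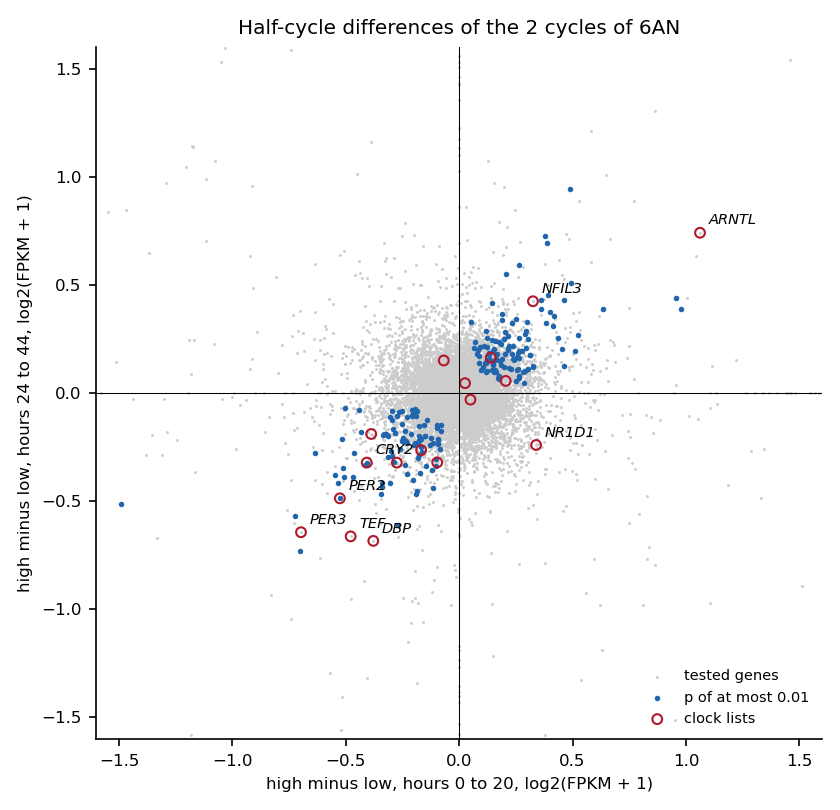
Difference between the ARNTL-high and ARNTL-low hours in hours 0 to 20 (x axis) and in hours 24 to 44 (y axis) of 6AN, in log2(FPKM + 1), for tested genes (grey), genes called at p of at most 0.01 (blue), and clock lists (red rings). ARNTL lies at 1.06 and 0.74, PER3 at -0.70 and -0.64, and over all tested genes the Pearson coefficient is -0.034. Both axes end at 1.6, and 451 genes lie outside them.

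PER2 and CRY2, repressors of the loop, were lower when ARNTL was high. With the marker PER3 left out, the 4 expressed period and cryptochrome genes had negative differences in both cycles, with a median of -0.40, and 2 passed p of at most 0.01. PER2 (chr2:238244038-238288566) ran from 2.83 to 4.56 FPKM in the ARNTL-high hours, with a median of 3.18, and from 3.27 to 7.15 in the ARNTL-low hours, with a median of 4.86. Its difference was -0.50 (SE 0.14, adjusted p = 0.63), and its highest libraries, 8 and 12 hr, both lie in the ARNTL-low hours, while the 2 sets of hours overlapped between 3.27 and 4.56 FPKM. Without the library of 8, 12, 24, or 28 hr, it no longer passed.

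CRY2 (chr11:45847118-45883248) ran from 5.75 to 9.22 FPKM in the ARNTL-high hours, with a median of 8.01, and from 9.09 to 12.5 in the ARNTL-low hours, with a median of 10.1. Its difference was -0.40 (SE 0.11, adjusted p = 0.606), and the 2 sets of hours overlapped between 9.09 and 9.22 FPKM. Without the library of 8 hr it no longer passed. CRY1, the other cryptochrome, ran from 8.12 to 15.1 FPKM in the ARNTL-high hours and from 11.1 to 16 in the ARNTL-low hours. Its difference was -0.41 (SE 0.15, adjusted p = 0.786), which did not pass, though it passed with cycle as a block. Its levels were still high at 20 and 44 hr, after those of PER3 and CRY2 had come down. PER1, an immediate target of many signals as well as of the clock, had medians of 27.1 and 31.5 FPKM and a difference of -0.29 (SE 0.20, adjusted p = 0.926).

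Of the activators other than ARNTL, NPAS2 was nearest to a call. NPAS2, a partner of BMAL1 that can replace CLOCK, ran from 16.3 to 19.8 FPKM in the ARNTL-high hours and from 14.1 to 17.0 in the ARNTL-low hours. Its difference of 0.18 (SE 0.06) lay just outside the call (adjusted p = 0.658). It passed when the trend was removed first, when libraries were centred, when a mean of 5 FPKM was required, and without 8 or 44 hr. The 2 sets overlapped between 16.3 and 17.0 FPKM. CLOCK itself had medians of 6.33 and 5.91 FPKM and a difference of 0.05 (SE 0.09, adjusted p = 0.979), and ARNTL2, the paralog of ARNTL, had a difference of 0.05 (SE 0.08, adjusted p = 0.975). CLOCK and ARNTL2 had differences of opposite sign in the cycles, at 0.05 and -0.03 for CLOCK and at -0.07 and 0.15 for ARNTL2.

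The PAR-bZIP factors, NFIL3, and the receptors did not pass. TEF, an activator of D-box genes, ran from 6.65 to 18.7 FPKM in the ARNTL-high hours and from 9.81 to 20.8 in the ARNTL-low hours, with a difference of -0.52 (SE 0.23, adjusted p = 0.855). DBP, the prototype of the same family, had medians of 15.2 and 23.1 FPKM and a difference of -0.44 (SE 0.21, adjusted p = 0.867). For both, 4 hr in the ARNTL-high hours was among the highest libraries, and 16 hr in the ARNTL-low hours among the lower ones. NFIL3, a repressor at the D-box, ran from 13.6 to 23.5 FPKM in the ARNTL-high hours and from 11.4 to 18.9 in the ARNTL-low hours, and its difference was 0.31 (SE 0.10, adjusted p = 0.706), which passed with cycle as a block and with robust eBayes. NR1D2, the other REV-ERB, had a difference of -0.12 (SE 0.19, adjusted p = 0.973), and the ROR genes RORA and RORB had differences of 0.06 (adjusted p = 0.953) and -0.02 (adjusted p = 0.991). The DEC repressors BHLHE40 and BHLHE41 had differences of 0.13 (adjusted p = 0.89) and -0.17 (adjusted p = 0.92).

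A difference between sets of hours sees a rhythm only as far as its peak falls inside one of them. With a 24 hr cosine fitted in place of the 2 sets of hours, 6 clock genes that were not called passed p of at most 0.01, namely NFIL3, DBP, TEF, CRY1, NR1D2, and NPAS2. PER2 and CRY2 passed in both fits. Among these 8 genes the fitted peaks were NPAS2 at 1.41 hr, NR1D2 at 6.78, DBP at 8.51, TEF at 8.86, PER2 at 10.6, CRY2 at 11.9, CRY1 at 14.4, and NFIL3 at 20.5 hr. The untested markers had fitted peaks at 4.82 (NR1D1), 11.3 (PER3), and 22 hr (ARNTL). PER1 and BHLHE41, at 8.58 and 8.14 hr, did not pass. Neighbours such as DBP and TEF are under 1 sampling step of 4 hr apart and cannot be ordered by these libraries. The cosine held the period at 24 hr, and the sets of hours repeat at 24 hr too. The paper reports that PPP inhibition lengthened the period of clock genes. ARNTL was lowest at 8 hr in the first cycle and 36 hr in the second, at 3.29 and 4.51 FPKM. PER3 was highest at the same hours, at 19.5 and 17.9 FPKM. Other clock genes had other spacings. TEF was highest at 8 and 32 hr, at 20.8 and 20.2 FPKM, and NFIL3 at 20 and 44 hr, at 20.7 and 23.5 FPKM. DBP was highest at 4 and 32 hr, at 28.9 and 26.2 FPKM. With 1 library every 4 hr, such extremes do not measure a period. A longer period was not fitted, so a fitted peak may blend cycles that are not aligned. Over all 13767 tested genes the cosine fit in limma called 251 at p of at most 0.01. After adjustment to 0.05 it called 0, and the smallest adjusted p was 0.143. Of the 251, 131 peaked between 12 and 18 hr. The share of all tested genes with a peak in these hours was not counted, so the 131 cannot be read as a trait of the called genes.

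At the same labelled hours of control cells, ARNTL, PER3, TEF, DBP, NR1D2, and NPAS2 passed p of at most 0.01, each with the sign opposite to that in 6AN. In DMSO, ARNTL ran from 5.52 to 6.68 FPKM at the ARNTL-high hours of 6AN, with a median of 5.86, and from 6.68 to 11.2 at those of the ARNTL-low hours, with a median of 9.06, and the ranges touched only at 6.68 FPKM. Its difference there was -0.53 (SE 0.10, adjusted p = 0.706). PER3 ran from 12.8 to 16.2 FPKM at the first set of hours and from 6.96 to 11.6 at the second, without overlap, with a difference of 0.54 (SE 0.09, adjusted p = 0.674). TEF had 0.62 (adjusted p = 0.697), DBP 0.48 (adjusted p = 0.974), NR1D2 0.42 (adjusted p = 0.974), and NPAS2 -0.32 (adjusted p = 0.974). PER2 and CRY2 had differences of 0.20 (adjusted p = 0.974) and 0.18 (adjusted p = 0.974) in DMSO, which did not pass.

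Of the 17 clock genes tested in both conditions, 14 had opposite signs in 6AN and DMSO, as against 48.7% of the 13269 genes tested in both. Without the 3 markers, it was 12 of 14. ARNTL2, NR1D1, and BHLHE40 had the same sign in both. The opposite signs include small differences, such as those of CLOCK (0.05, SE 0.09, in 6AN and -0.04, SE 0.06, in DMSO). RORA had 0.06 (SE 0.06) in 6AN and -0.003 (SE 0.09) in DMSO. Clock genes regulate one another, so their signs are not independent counts. The tables were normalized separately, and the difference between the conditions was not tested. Over all 13798 loci tested in DMSO, 54 were higher (0.391%) and 53 lower (0.384%) at p of at most 0.01, and limma called 0 after adjustment to 0.05 (0%), with 634 at an unadjusted p under 0.05.

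**Figure D3:**
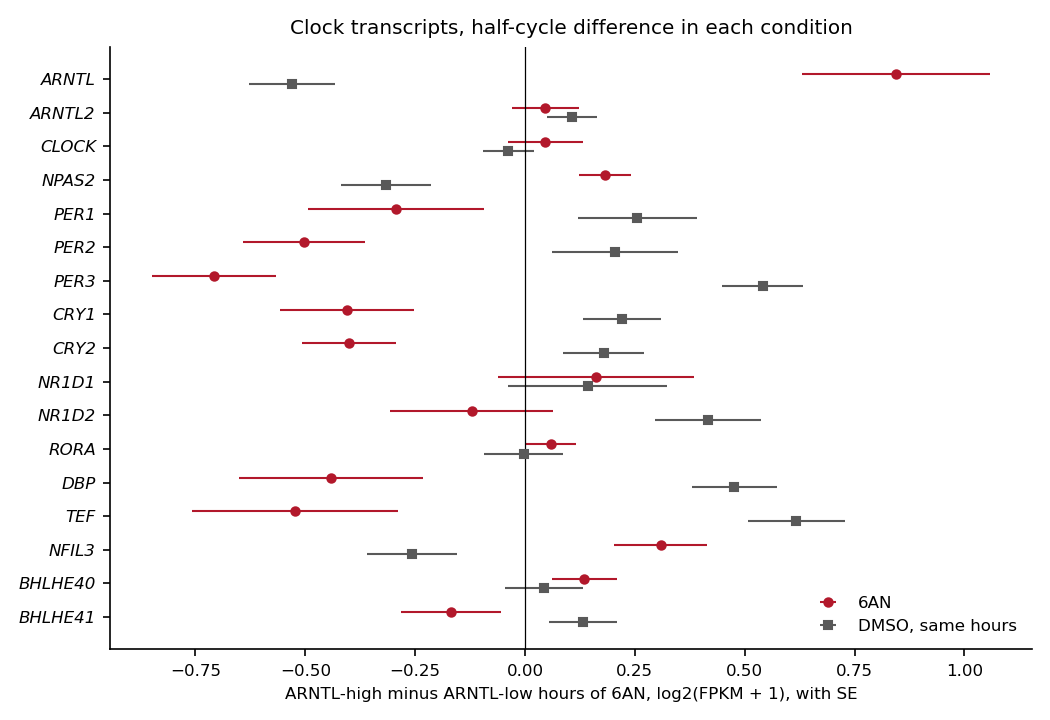
Difference between the ARNTL-high and ARNTL-low hours of 6AN in log2(FPKM + 1) (x axis) for 17 clock genes, in 6AN (red circles) and at the same labelled hours of DMSO (grey squares), with SE as bars. ARNTL stands at 0.84 in 6AN and -0.53 in DMSO, and PER3 at -0.71 and 0.54.

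Outside the clock, the highest-ranked genes with more RNA in the ARNTL-high hours were mixed in function. SERPINA1 (chr14:94376747-94390692), which encodes alpha-1 antitrypsin, a secreted inhibitor of serine proteases, had the smallest p in that direction. It ran from 6.5 to 17.6 FPKM in the ARNTL-high hours, with a median of 11.2, and from 5.35 to 11.4 in the ARNTL-low hours, with a median of 7.02. Its level came down over the time course, from 17.6 FPKM at 0 hr to 6.5 at 44 hr, and the 2 sets of hours parted only once the trend was removed. Its difference was 0.41 (SE 0.06, adjusted p = 0.259), or 0.39 and 0.45 in the cycles. The call of SERPINA1 was lost with no trend removed, with the 24 hr cosine, and in each cycle alone.

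PLAT (chr8:42174718-42207676), the gene for tissue plasminogen activator, a protease of the fibrinolytic system, came next by p. It ran from 75.3 to 181 FPKM in the ARNTL-high hours, with a median of 116, and from 60.4 to 98.3 in the ARNTL-low hours, with a median of 77. The highest library was that of 0 hr, and the lowest of the ARNTL-high hours was that of 44 hr. Its difference was 0.55 (SE 0.10, adjusted p = 0.37), or 0.64 and 0.39 in the cycles, and it also passed with the cosine. At the same hours of DMSO, PLAT differed by -0.32 (adjusted p = 0.974). Of the 107 higher genes, 105 were tested in DMSO, and 55 of these had the same sign there, as had 51 of the 98 lower genes. With ATP10D and PDGFRB, PLAT is one of 3 higher genes that passed with the other sign in DMSO, where 0.384% of all loci were called lower. These 2, named after their values were seen, differed by 0.27 and 0.32 in 6AN and by -0.13 and -0.30 in DMSO. RBM23, named in the same way, passed with the same sign in both, at 0.12 and 0.14.

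FGF1, a fibroblast growth factor, had medians of 5.46 and 3.9 FPKM and a difference of 0.41 (SE 0.08, adjusted p = 0.37). MAP1LC3B2 had medians of 3.58 and 2.18 FPKM and a difference of 0.70 (SE 0.13, adjusted p = 0.37). It is a near-identical copy of the autophagy gene MAP1LC3B, so its reads may be split uncertainly between them. RINT1, a tether of vesicle traffic between the Golgi and the endoplasmic reticulum, was a narrow case, from 8.9 to 9.35 FPKM in the ARNTL-high hours and from 7.18 to 8.28 in the ARNTL-low hours, without overlap even before the trend was removed. Its difference was 0.21 (SE 0.04, adjusted p = 0.37). TMEM87A, with 0.27, likewise did not overlap, from 9.8 FPKM upward in the ARNTL-high hours and up to 9.07 in the ARNTL-low hours.

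The others of the 10 named were UBXN8 (0.51), which recruits the ATPase p97 to the endoplasmic reticulum, SLC5A10 (0.33), a sugar transporter, FBXO38 (0.27), a subunit of a ubiquitin ligase, and MAP3K13 (0.17), a kinase upstream of JNK. None of their adjusted p-values was below 0.534. UBXN8 ran from 3.18 FPKM at 0 hr to 7.92 at 44 hr. SPP1 and TXN were called members of the gene lists. SPP1, which encodes osteopontin of the bone matrix, was at 0.40 (SE 0.11, adjusted p = 0.63), with medians of 4.7 and 2.46 FPKM and its highest levels at 0 and 4 hr. TXN, the cytosolic thioredoxin, was at 0.15 (SE 0.04, adjusted p = 0.635), with medians of 126 and 116 FPKM. Both calls were lost when single libraries were left out, SPP1 without 8 or 20 hr and TXN without 8, 16, or 44 hr.

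SYNPO (chr5:150601080-150659230), which encodes the actin-binding protein synaptopodin, was the gene of smallest p among those with less RNA in the ARNTL-high hours. It ran from 22.6 to 28 FPKM in the ARNTL-high hours, with a median of 24.8, and from 31.4 to 36.6 in the ARNTL-low hours, with a median of 33.3. No library of one set reached into the other. Its difference was -0.40 (SE 0.06, adjusted p = 0.259), or -0.47 and -0.28 in the cycles, and in DMSO it was 0.03 (adjusted p = 0.992).

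CCDC85B (chr11:65890404-65891635) ran from 58.8 to 102 FPKM in the ARNTL-high hours and from 86.8 to 119 in the ARNTL-low hours, with medians of 81 and 104. It climbed over the time course, and once that was removed the 2 sets of hours were apart, with a difference of -0.33 (SE 0.06, adjusted p = 0.37). IRS1, a docking protein of the insulin receptor, had medians of 14 and 16.2 FPKM and a difference of -0.27 (SE 0.06, adjusted p = 0.534). GGA2, a clathrin adaptor of the Golgi, stayed at or below 7.57 FPKM in the ARNTL-high hours and at or above 7.83 in the ARNTL-low hours, with a difference of -0.22 (SE 0.04, adjusted p = 0.37).

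AFF3 (-0.38) and MN1 (-0.36), both regulators of transcription, and LSM7 (-0.22), a subunit of the ring that binds U6 RNA and messages under decay, also parted after the trend was removed. UBE2M (-0.30), the enzyme that conjugates NEDD8, parted as well. IRS1, CDPF1 (-0.34), and ARHGEF17 (-0.23) kept overlapping sets of hours. None of the 10 lower genes named passed p of at most 0.01 in DMSO, where their differences ran from -0.09 to 0.17.

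**Figure D4:**
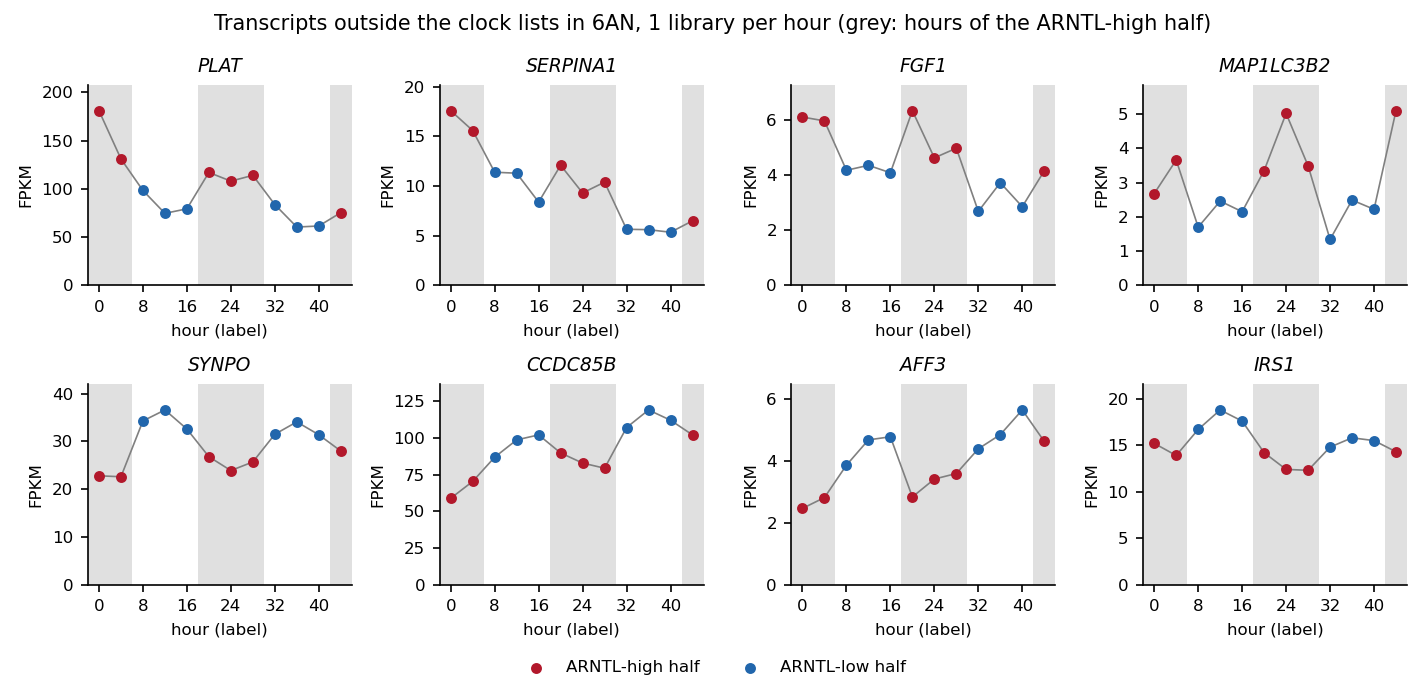
FPKM (y axis) by labelled hour (x axis, hr) in 6AN for 4 genes higher in the ARNTL-high hours (PLAT, SERPINA1, FGF1, MAP1LC3B2) and 4 lower (SYNPO, CCDC85B, AFF3, IRS1), 1 library per point, in red for the ARNTL-high hours (grey bands) and in blue for the ARNTL-low hours. SYNPO stays between 22.6 and 28 FPKM in the ARNTL-high hours and between 31.4 and 36.6 in the ARNTL-low hours.

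The widest log2 differences among called genes belonged to loci with libraries at 0. Of the called genes, 4 differed by at least 1, all lower, namely SNORD10, SNORD137, MIR3936, and HIST1H2BN, which are named here after their values were seen. SNORD10 and SNORD137, small nucleolar RNAs, were listed at 0 in all 6 libraries of the ARNTL-high hours and also in 2 of the ARNTL-low hours each. In the rest of the ARNTL-low hours SNORD10 had 116, 23.9, 36.6, and 11.6 FPKM at 8, 12, 16, and 40 hr. MIR3936 was at 0 in 5 ARNTL-high and 2 ARNTL-low libraries. HIST1H2BN, a histone gene, was at 0 at 20 and 28 hr and at most 6.09 FPKM elsewhere. As deposited, the loci named SNORD10 (chr17:7561992-7579006) and MIR3936 (chr5:132294452-132395614) are far longer than these RNAs.

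Did genes with a BMAL1/CLOCK site follow the 2 sets of hours? ChIP-seq was done at 1 time in 6AN, 24 hr, with 1 library per antibody, and the authors' table lists 439 merged BMAL1/CLOCK sites. HOMER assigned them to 414 genes, of which 334 were expressed. The expressed bound genes divided evenly, 167 higher and 167 lower, with a median difference of 0.00022 against 0.0047 over all genes. Of them, 9 were called lower (2.69%, against 0.712% of all genes) and 1 higher. Without the clock lists, 7 of 323 were called lower (2.17%). Among the 50 bound genes with the highest CLOCK signal, 37 were lower and 13 higher, where 47.7% of all genes were lower. Their median was -0.056, and in DMSO their median was 0.070. Without the clock lists and markers, 28 of the remaining 39 were lower, with a median of -0.048. Of the 185 genes with a promoter site, 105 were higher and 80 lower (43.2%, against 47.7% of all genes), with a median of 0.012. By calls they leaned lower, with 6 called lower (3.24%) and 1 higher. Without the clock lists, 103 of 175 were higher and 72 lower (41.1%), with 4 called lower (2.29%) and 1 called higher. The counts that keep the clock lists include PER3 and NR1D1.

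Among the genes named, the strongest sites lay at clock genes. In windows of 1000 bases, with libraries scaled to a common size, TEF had a site of 1172 CLOCK and 394 BMAL1 tags, NR1D2 one of 1037 and 317, NR1D1 one of 752 and 283, PER1 one of 700 and 153, PER3 one of 674 and 192, DBP one of 667 and 227, and PER2 one of 626 and 156, while input stood between 6.73 and 30.6 at these sites. CRY2 had 296 CLOCK tags at its start and CRY1 132. The bound genes of smallest p outside the clock lists had fewer tags. CCDC85B had 130 CLOCK tags in a window centred in its 5' UTR, ALDH3B1 had 72.5 and 58.2 in 2 promoter windows, LINC00452, a noncoding RNA, had 70.3 in an intron, GGA2 had 47.3, and CCDC86 had 35.2, with input between 4.14 and 16.6. LINC00452 differed by -0.29 (adjusted p = 0.534), ALDH3B1, an aldehyde dehydrogenase, by -0.26 (adjusted p = 0.635), and CCDC86 by -0.16 (adjusted p = 0.658). The call of ALDH3B1 was lost without 0, 8, 12, 16, 24, or 28 hr, and that of CCDC86 without 12, 16, 20, 24, 28, or 40 hr.

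No list beyond the clock had more than 1 called gene. Over all tested genes, 0.777% were called higher and 0.712% lower, and a single call is not read as a trait of its list. The 7 expressed clock kinases and ubiquitin ligases, which set the stability of the PER and CRY proteins, had differences between -0.06 and 0.07, and none was called. Of 11 expressed genes known as clock outputs, such as NAMPT of the NAD salvage pathway (0.08, adjusted p = 0.87), none was called, and TSPAN4 came closest with -0.30 (adjusted p = 0.792). The 7 enzymes of the PPP, the pathway that 6AN blocks, lay between -0.07 and 0.04, with PGD at 0.01 (adjusted p = 0.991). In the peroxiredoxin and thioredoxin system, TXN was the only one called of 12, and PRDX3, the mitochondrial peroxiredoxin, was at 0.10 (adjusted p = 0.855).

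Of the NRF2 targets, 11 of 14 had a positive difference, with a median of 0.06, and none was called. HMOX1, heme oxygenase, was the nearest at 0.23 (adjusted p = 0.856). Of the replication and mitosis genes, 15 of 18 and 17 of 20 had a negative difference, with medians of -0.054 and -0.043, and none was called. These directions rest on the fitted trend. With no trend removed, an alternative added after the values were seen, 17 of the 20 mitosis genes had a positive difference (median 0.069), and the replication genes were 8 positive and 10 negative (median -0.0063). In DMSO the medians of the same lists were 0.089 and 0.20. Over all tested genes, 7205 differences were positive and 6562 negative. Of the replication genes, MCM5 of the helicase was at -0.15 (adjusted p = 0.792) and GINS2 at -0.27 (adjusted p = 0.845).

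None was called among 16 genes of the heat and cold response, 12 of the integrated stress response, 12 p53 targets, 9 glucocorticoid-induced genes, 12 immediate early genes, 16 of cholesterol synthesis, 15 collagens and matrix genes, and 20 cytosolic ribosomal proteins, with medians between -0.013 and 0.047. Among osteoblast markers SPP1 was the only one called of 8, where 0.777% of all tested genes were called higher, and the median was -0.0059. The 2 expressed markers of other cell types, LYZ and SNAP25, differed by -0.15 and 0.01.

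**Figure D5:**
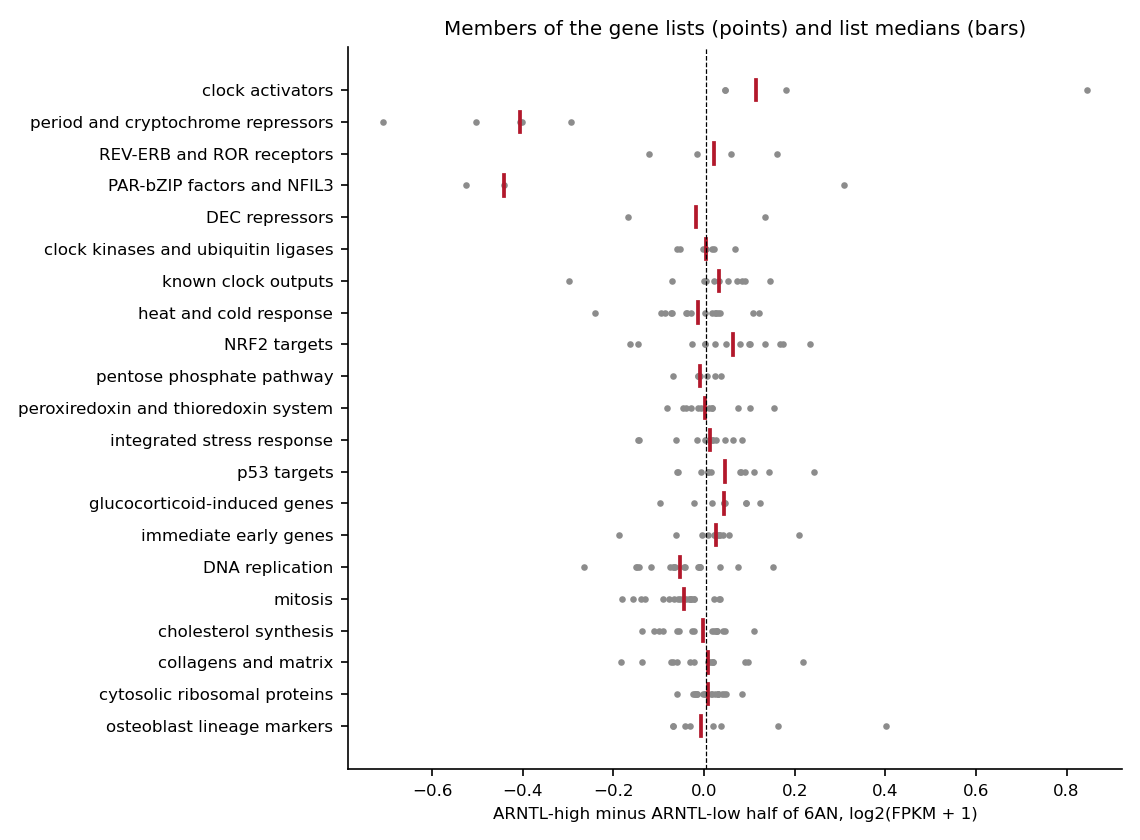
Differences between the ARNTL-high and ARNTL-low hours of 6AN in log2(FPKM + 1) (x axis) for expressed members of 21 gene lists (points), with list medians as red bars and the median of all tested genes as a dashed line. The period and cryptochrome repressors, PER3 among them, have a median of -0.41, the mitosis list turns positive with no trend removed, and the lists beyond the clock have medians between -0.054 and 0.064.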

How the data were processed

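RNA-seq was analysed in 12 libraries of 6AN-treated U2OS cells and, beside them, in 12 of DMSO. The authors aligned reads with TopHat and Bowtie to hg38, quantified loci with Cufflinks, and deposited FPKM tables of 28690 loci, normalized within each condition. For ChIP-seq, the deposited signal is the tags in 1000 bases at each merged BMAL1/CLOCK site in 6AN, from Bowtie2 and HOMER. Every value column used was mapped to a sample. The tables of DMSO sites and of all merged peaks were not used here.

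Values were log2(FPKM + 1) for loci with a mean of at least 1 FPKM. limma 3.58.1 (R 4.3.3) fitted the set of hours and a linear trend in hour, with eBayes and a mean-variance trend, a two-sided p of 0.01 or less as the call, and Benjamini-Hochberg adjusted values over all loci. The fit was run on simulated data with independent noise and differences of 1 on the log2 scale. Most called differences here are smaller, so that run does not show how well they are found. A 24 hr cosine was an alternative. Differences are ARNTL-high minus ARNTL-low, and within-cycle differences have no test. Fractional depth relative to the median library came from the commonest ratio of FPKM values between libraries at loci of low FPKM. Other steps used Python 3.11.15, NumPy 2.4.6, pandas 2.3.3, and matplotlib 3.10.9. Of 13770 expressed loci, 10097 matched RefSeq start windows by symbol or synonym.

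The members, hours, and gene lists were chosen with earlier results of these data known. Genes named were the expressed clock genes, the 10 of smallest p in each direction with 1 sign in both cycles (small RNA and LOC loci and the 3 markers left out), called members of the other lists, and the 5 bound genes of smallest p outside the clock lists. Alternatives covered pseudocount, filter, trend, cycle, scaling, variance model, rhythm model, call rule, single cycles, and each library left out. After the data were seen, lists without the markers or the trend and bound genes without the clock lists were added. Labels give no replicate numbers.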

Additional observations from a re-analysis of the deposited data

How the results depend on the processing

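Each count of called genes was recomputed under 13 alternatives and with each of the 12 hours left out. In 6AN the counts were 107 higher and 98 lower. Without a trend they were 44 and 56. At an adjusted p of at most 0.05, both were 0. In the first cycle alone they were 52 and 65, of which 7 and 14 had been called on both cycles, and in the second cycle alone they were 44 and 79, of which 10 and 19 had been. The 24 hr cosine raised the lower genes to 159, of which 44 were shared. With each library centred on its median the counts were 143 and 85, so that the share of higher genes moved from about even to a clear majority. In DMSO, where the counts were 54 higher and 53 lower, the cosine gave 85 and 96, an adjusted p of at most 0.05 gave 0 of each, no filter gave 83 lower, and single cycles gave 34 and 32 higher. The causes were not tested. With single hours left out, the counts ran from 69 to 131 higher and from 69 to 123 lower in 6AN, and from 35 to 91 higher and from 37 to 78 lower in DMSO. The lowest count of higher genes in 6AN was the one without 8 hr, and in DMSO the counts of higher genes without 16 hr and 32 hr were the lowest and highest.

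No named gene changed sign with a call under any alternative. All 27 called genes named kept their call under pseudocount 0.1, no filter, trend removed first, centred libraries, no mean-variance trend, and robust eBayes, and the 19 that passed a mean of 5 FPKM kept theirs. With no trend removed 8 lost it, with the cosine 11, with cycle as a block 1 (CCDC86), in the first cycle alone 17, in the second cycle alone 20, and at an adjusted p of at most 0.05 all 27. Of the 13 clock genes tested and not called, calls were gained by CRY1 and NFIL3 with cycle as a block, by NPAS2 with trend removed first, centred libraries, and a mean of 5 FPKM, by NFIL3 with robust eBayes, by CRY1 and BHLHE40 in the first cycle alone, and by 6 with the cosine. Leaving out single hours gained CRY1 (20, 32, or 44 hr), NPAS2 (8 or 44 hr), and NFIL3 (16 hr). The mitosis list changed direction with no trend removed. Depth is known only between libraries, so no counting error is given for FPKM.

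The labels carry no replicate numbers. With cycle as a block, the counts in 6AN were 102 higher and 89 lower.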
